A study of Mus musculus with 2 samples.

Results

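Cytosolic ribosomal protein genes encode the proteins that, with ribosomal RNA, form the 2 subunits of the ribosome outside mitochondria. They were taken here as the protein-coding genes of the GENCODE M21 annotation whose symbol is Rpl or Rps followed by a digit, or is Rplp0, Rplp1, Rplp2 or Rpsa, without the Rps6k kinases and without pseudogenes. The rule found 86 genes among 21951 protein-coding genes. Of these, 77 encode core subunit proteins, 46 of the large and 31 of the small subunit. A further 8 are paralogs of core genes, and Rps19bp1 encodes an RPS19-binding protein that shares only the symbol. Chromatin was mapped by DNase-seq in whole ovary of B6CASTF1/J mice, an F1 hybrid strain, all female, untreated as far as the labels say, and 36 days old. There was 1 group with 2 biological replicates, numbered as different females in the labels, so no contrast between conditions exists and no test was made. DNase I cuts DNA that is not held by nucleosomes, so many cuts at 1 place mark open chromatin. A footprint is a few bases inside such a site that the enzyme cuts less, as under a bound protein.

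Every growing cell makes the core proteins in matched amounts, and their transcripts are among the most abundant in most tissues. The promoters are known for a start site at a C within a run of pyrimidines, the terminal oligopyrimidine or TOP element, through which mTOR and LARP1 control translation of these mRNAs. They often lack a TATA box and carry sites for ETS-family factors such as GABP, for SP1 and for YY1. Many of the genes host small nucleolar RNAs, which guide the modification of ribosomal RNA, in their introns.

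The longer deposited peak lists held 109169 peaks in replicate 1 and 114462 in replicate 2. Each peak carries a value, of a scaling not given in the sources used here. Values were higher in replicate 1 at most promoters, so the libraries are given side by side. A gene counted as open if both libraries had a peak no further than 500 bp from one of its annotated start sites, and its value is that of the strongest such peak. As a check of the tissue label, all 7 granulosa cell markers (Foxl2, Inha, Inhba, Fshr, Amh, Nr5a2 and Fst) were open. Of 4 liver markers 0 were, and of 3 lymphocyte markers 1 (Cd2) was, where 66.7% of all protein-coding genes were open. By mean value Cd2 (1.27) lay above Amh (1.22) and Fshr (0.56) and below the other granulosa markers, so the check is weak. A whole ovary mixes many cell types, so openness in fewer cells and less openness per cell cannot be told apart.

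Nearly all ribosomal protein genes had an open promoter. In both libraries 82 of 86 did, against 66.7% of all protein-coding genes, and the 82 included all 77 core genes. The 4 genes that were not open are paralogs. Rpl10l, an intronless copy of Rpl10 known from the male germline, had a peak of 0.280 in replicate 1 and none within the window in replicate 2. It was the 1 member with a promoter peak in a single library, a state found for 3.48% of all genes. Rpl39l, also known from the testis, Rpl3l, the striated muscle form of Rpl3, and Rps27rt, a retrotransposed copy of Rps27, had none in the window in replicate 1 or 2.

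The open promoters stood above the typical open promoter. Their median value was 10.5 in replicate 1 and 5.66 in replicate 2, against 6.64 and 3.58 over the 14549 other open protein-coding genes. The ratio of these medians was 1.57 in replicate 1 and 1.58 in replicate 2. Of the 82 genes, 70 lay above the median of the other open promoters by mean value. The highest 10% of open promoters held 17 of them (20.7%) and the highest 20% held 31 (37.8%). By the strongest peak, none lay among the lowest 30%, which ends at a mean value of 2.84. With the peak nearest to any annotated start instead, Rpl23a (1.84) and Rpl4 (1.86) fell below that bound. The values ranged from 2.79 to 23.7 in replicate 1, an 8.52-fold range, and from 2.44 to 12.1 in replicate 2, a 4.95-fold range. On the log2 scale the SD over the genes was 0.67 and 0.52, against 1.44 and 1.23 over other open promoters. Order was largely kept between the animals: over the 82 genes the log10 values of the libraries gave r = 0.94 and rho = 0.937, against 0.969 and 0.966 over other open promoters, where the points share the 2 libraries and their peak calling.

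**Figure D1:**
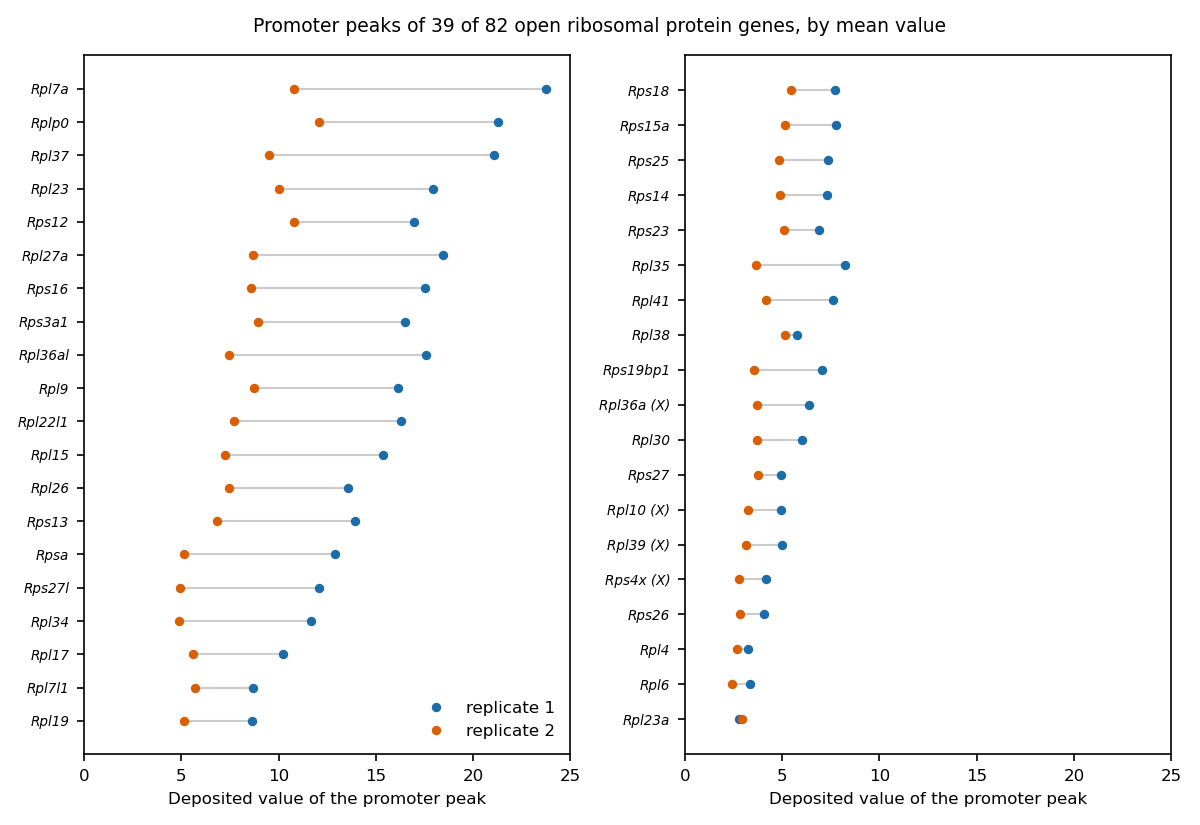
Value of the promoter peak of 39 of the 82 open ribosomal protein genes, those at the ends of the value, ratio, width or footprint order, on X, or paralogs and look-alikes, ordered by the mean of the libraries from top left to bottom right. Blue points are replicate 1, orange points replicate 2, and (X) marks genes on the X chromosome. Replicate 1 is the higher in each gene drawn except Rpl23a, and the values run from 23.7 for Rpl7a to 2.79 for Rpl23a in replicate 1.

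The highest values were those of Rpl7a, Rplp0 and Rpl37. Rpl7a, a large subunit protein, had 23.7 in replicate 1 at chr2:26910601-26910800 (mm10, plus strand), across its first exon's start, and 10.8 in replicate 2, for a mean of 17.3 ± 9.15 (SD, n = 2). Med22 starts within 1000 bp of Rpl7a, as do Mgat2 of Rpl36al and Lias of Rpl9, so these values cannot be assigned to the member alone. Rplp0 encodes the base of the ribosomal stalk, which recruits translation factors. Its peak, at chr5:115559261-115559520 in replicate 1, had 21.3, and that of replicate 2 had 12.1, the highest value of any member in that library. Rpl37 followed with 21.1 and 9.53 at chr15:5116321-5116600. Rpl7a lay at percentile 99.2 of all open promoters, Rplp0 at 99.0 and Rpl37 at 98.0. The next were Rpl23 (17.9 and 9.999), Rps12 (17.0 and 10.8), Rpl27a (18.4 and 8.70), Rps16 (17.5 and 8.58), Rps3a1 (16.5 and 8.95), Rpl36al (17.6 and 7.45) and Rpl9 (16.2 and 8.74). In both libraries these 10 genes exceeded the members' median, and the gap between neighbours in this order was smaller than the SD between the libraries.

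The lowest values were those of Rpl23a, Rpl6, Rpl4, Rps26 and Rps4x. Rpl23a, at the mouth of the exit tunnel of the large subunit, had 2.79 in replicate 1 and 2.93 in replicate 2. Rpl6 had 3.36 and 2.44. Rpl4, which lines the exit tunnel, had 3.24 and 2.68, from peaks at chr9:64172821-64173000 and chr9:64172821-64173020, upstream of an annotated gene that begins at 64173375. Zwilch, a kinetochore gene, starts within 1000 bp of it, so the same holds for Rpl4. Rps26 had 4.09 and 2.82, but not from the same site: the strongest peak was at chr10:128626361-128626560 in replicate 1 and at chr10:128626741-128626960 in replicate 2, where a peak of 2.77 at chr10:128626381-128626580 also lay. It was the 1 of 82 genes whose strongest peaks did not overlap between the libraries. By the strongest peak, Rpl23a, Rpl6 and Rpl4 lay at the 30.2, 30.5 and 31.0 percentiles of all open promoters. The peak nearest to the start of Rpl4, at chr9:64173341-64173660 in replicate 1, had 1.92 there and 1.79 in replicate 2. For Rpl23a the peak nearest to any annotated start gave a mean of 1.84 rather than 2.86, from peaks that did not overlap between the libraries.

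The subunits did not separate. The 46 large subunit genes had medians of 10.03 in replicate 1 and 5.53 in replicate 2, and the 31 small subunit genes 10.9 and 6.03. Each difference was small beside the range within a subunit. Of the stalk proteins, Rplp1 had 10.5 and 5.52 and Rplp2 10.4 and 5.54, so these partners were close to each other while Rplp0, which binds both, was higher in each library. Among small subunit proteins with other known roles, Rps6, the substrate of S6 kinase downstream of mTOR, had 10.9 and 5.99. Rpsa, also known as a laminin receptor, had 12.9 and 5.12. Rps19, mutated in Diamond-Blackfan anaemia, had 14.1 and 7.68, and Rps14, known from the 5q- syndrome, had 7.30 and 4.88. Of the large subunit proteins that bind MDM2, Rpl5 had 8.77 and 5.00, Rpl11 had 6.55 and 4.07 and Rpl23 was higher, as above. These examples were chosen after their values were seen.

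Paralogs divided into open and closed. Of the 8, 4 were open: Rpl36al, Rpl22l1, Rps27l and Rpl7l1. Rpl36al had 17.6 in replicate 1 and 7.45 in replicate 2, above its X-linked counterpart Rpl36a at 6.39 and 3.72. Rpl22l1 had 16.3 and 7.73, above Rpl22 at 7.34 and 4.32. Rps27l, a p53 target, had 12.1 and 4.91, above Rps27 at 4.93 and 3.74. In each of these pairs the paralog was the higher in both libraries. Rpl7l1, at 8.71 and 5.70, was close to Rpl7, at 8.69 and 5.09. Those Rpl7 peaks were centred -358.5 and -268.5 bp from its start. Its other peak in the window had 4.44 and 3.66, so the closeness rests on the choice of peak. The look-alike Rps19bp1 had 7.03 and 3.57, below the members' median in both libraries. Fau and Rack1 encode ribosomal proteins under other symbols and so fall outside the rule. Both were open, Fau with 17.7 and 8.13 and Rack1 with 6.06 and 3.87.

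The 4 X-linked members were all among the 12 of lowest mean value. Rpl36a had 6.39 in replicate 1 and 3.72 in replicate 2. Rpl10, added late in large subunit assembly, had 4.92 and 3.23. Rpl39, a small exit tunnel protein, had 4.99 and 3.13, and Rps4x, the small subunit protein known in humans for a Y-linked copy, had 4.19 and 2.80. Their medians were 4.95 and 3.18, against 10.7 and 5.81 for the 78 open autosomal members, a ratio of 2.16 in replicate 1 and 1.83 in replicate 2. The X chromosome was lower in general: 468 other open genes on X had medians of 3.28 and 1.80 and 14081 on autosomes had 6.84 and 3.68, ratios of 2.09 and 2.04. Members on X were thus lower than autosomal members by about as much as other X genes were lower than other autosomal genes. All 4 were open, against 49.6% of the other 944 genes on X.

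Other gene lists of the translation machinery were read the same way. All 78 mitochondrial ribosomal protein genes (Mrpl and Mrps) were open, with medians of 8.10 and 4.48, which the cytosolic set exceeded by 1.29-fold in replicate 1 and 1.26-fold in replicate 2. The 14 translation factors and other genes of TOP transcripts were all open, at 15.6 and 7.39, above the ribosomal protein genes in both libraries. Tpt1 (22.6 and 10.02) and Pabpc1 (22.4 and 9.66) led them. The 18 ribosome biogenesis genes were all open, at 6.77 and 4.15, led by Nop56 (19.5 and 10.95), a component of box C/D snoRNPs, with Rrp12 lowest (2.02 and 2.22). The 9 genes of regulators were open too, at 8.49 and 4.02, among them Yy1 (18.8 and 7.15), Gabpa (6.71 and 3.56), Larp1 (5.76 and 2.30) and Mtor (8.49 and 4.02). These levels are of chromatin, and no RNA was measured.

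**Figure D2:**
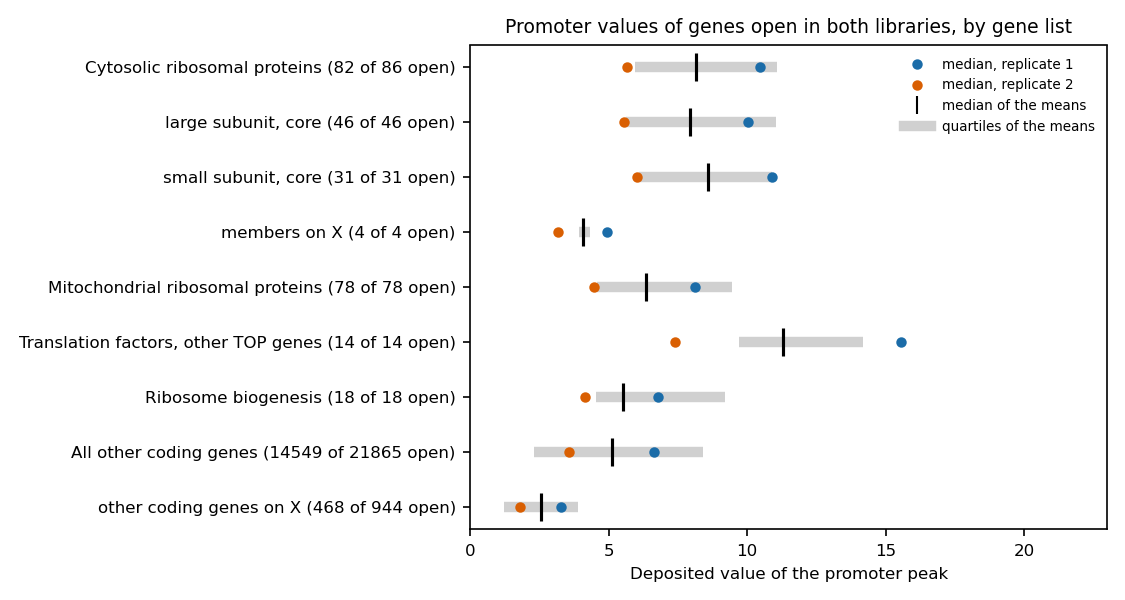
Median promoter value in replicate 1 (blue) and replicate 2 (orange) by gene list, with the median (black bar) and the quartiles (grey) of the mean over both libraries. Cytosolic ribosomal protein genes (medians 10.5 and 5.66) lie above mitochondrial ribosomal protein genes (8.10 and 4.48) and all other coding genes (6.64 and 3.58), and the 4 members on X (4.95 and 3.18) lie below.

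Ribosomal protein pseudogenes were nearly all closed. Of 300 annotated with -ps in the symbol, 4 (1.33%) had a promoter peak in both libraries. Rpl29-ps2 had 4.40 and 3.65 and lies by the start of another coding gene. The other 3 had mean values of 0.41 (Rpl19-ps3), 0.55 (Rps2-ps3) and 0.67 (Rps19-ps10). How reads that match both a gene and its copies were placed was not stated, and values at near-identical copies are uncertain.

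The libraries differed by about the same factor at these genes as elsewhere. Of the 82 genes, 81 had the lower value in replicate 2, as did 96.7% of all open promoters. The median log2 ratio of replicate 2 to replicate 1 was -0.85, and over all open promoters it was -0.88. Relative to that, 48 of 82 genes lay above 0, where 50% of open promoters do. The SD of the ratio over the genes was 0.26, against 0.39 over other open promoters. Genes of low value kept more of it in replicate 2, among members and other promoters alike. In the highest 10% of open promoters the median log2 ratio was -0.95 for members and -1.09 for others, and in the lowest 10% that held members, class 4 of 10 in rising order, it was -0.50 for 6 members and -0.81 for others. Set against promoters of the same class, the members' median relative ratio was 0.15 rather than 0.03. Set against promoters of like GC content it was -0.04, and summed over peaks -0.03, so no direction is read from it.

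Rpl23a was the 1 gene higher in replicate 2, with a relative log2 ratio of 0.96. Its peak was 80 bp wide in replicate 1 and 360 bp in replicate 2. Replicate 1 had a second peak of 0.742 over another annotated start, centred 567 bp downstream of the start used for positions. With the peak nearest to any annotated start, which did not overlap between the libraries, the relative ratio was 2.85. Summed over the window it was 0.57, and Rpl23a was then the lower in replicate 2. Rpl38, known for its part in the translation of Hox mRNAs, followed at 0.72, from 5.76 in replicate 1 and 5.16 in replicate 2. Rpl4 had 0.61, Rps27 had 0.48 and Rps23, at the decoding centre, had 0.45. Relative to promoters of like GC content these were 0.31, 0.18 and 0.15, and for Rps23 the sum over peaks gave -0.31, so its direction rests on the choice of peak. At the other end were Rpsa (-0.45), Rps27l (-0.41), Rpl34 (-0.37), Rpl36al (-0.35) and Rpl35 (-0.30). With 1 library per animal, none of these can be told apart from variation between libraries.

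**Figure D3:**
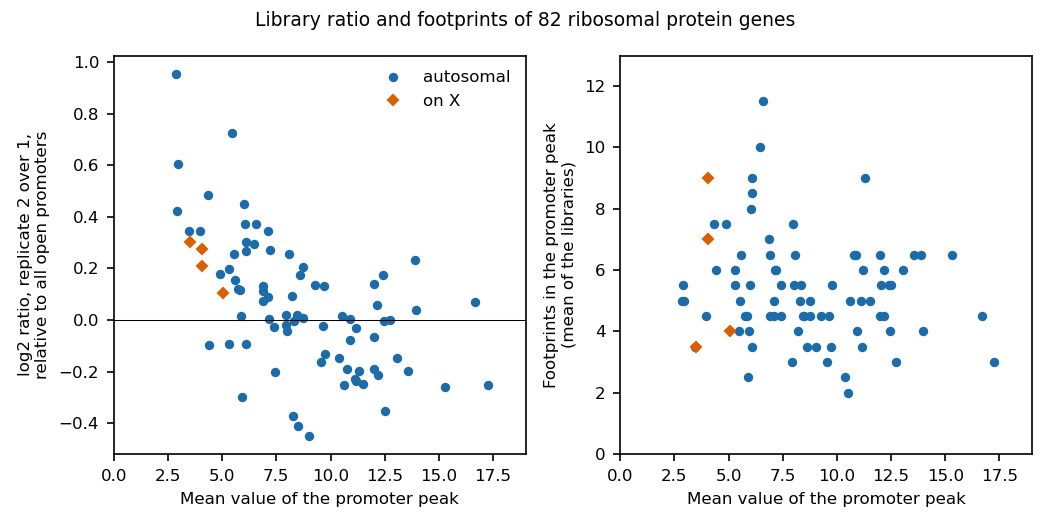
Left, log2 ratio of the promoter value in replicate 2 to replicate 1, relative to the median over all open promoters, against the mean value. Right, footprints in the promoter peak, mean of the libraries, against the mean value, for the same 82 genes with the 4 on X in orange. Rpl23a, at 0.96, is the highest point on the left, genes of high mean value lie near or below 0, and footprint number shows no order by value on the right (r = -0.154).

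Peak widths were ordinary. The median was 220 bp in replicate 1 and 260 bp in replicate 2, the same as at other open promoters, and members spanned 80 to 500 bp and 120 to 660 bp. Of the 82, 64 were wider in replicate 2, 7 were narrower and 11 equal, and the median at other open promoters was also higher in replicate 2. A single promoter peak in each library was found for 41 genes. Shares over other open promoters are not given for these counts, so neither is read as particular to the members. The widest were Rpl30 (500 and 520 bp), Rpl10 (240 and 660 bp), Rps25 (440 and 460 bp), Rps14 (440 bp in both) and Rps27 (400 bp in both). The narrowest were Rpl17 (160 bp in both), Rpl7a (200 and 120 bp), Rpsa (200 and 120 bp), 2 of 7 genes tied at a mean of 190 bp, Rpl19 and Rpl23 (180 and 200 bp each). The strongest promoter, Rpl7a, was thus among the narrowest. Wide peaks can hold more than 1 start: Rps25 and Trappc4, Rps14 and Ndst1, and Rps27 and Rab13 have starts within 1000 bp of each other.

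The peaks sat over the start site. In both libraries the peak covered it for 69 of 82 genes (84.1%), against 64.6% of open promoters. Mitochondrial ribosomal protein genes were close to the members in this: by library, 82.1% and 88.5% were covered, against 87.8% and 91.5% of members. The base of lowest q-value in the peak lay upstream of the start for 62 genes, 75.6%, against 69.1%. The median peak centre was 36 bp upstream of the nearest annotated start. That distance depends on which start is taken. Against the most upstream annotated start the centre was 9.5 bp downstream, and against the start shared by most transcripts 5.5 bp upstream.

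Footprints were as many as at other open promoters. The median was 5 per promoter in each library, for members and for others, and the median number seen in both libraries was 4 for members and 3 for others. Replicate 1 held 405 footprints in the members' peaks and replicate 2 held 468, and 307 of those in replicate 1 overlapped one in replicate 2. A footprint seen in both libraries was present at 81 of 82 genes, against 89.7% of open promoters, and 3 or more at 63 (76.8%), against 62.3%. The exception was Rps26, whose peaks lay apart. The most were at Rps18 (13 and 10), Rps15a (6 and 14), Rpl10 (6 and 12), Rpl15 (8 and 10) and Rps25 (9 and 9), the fewest at Rpl26 (1 and 3), Rpl41 (2 and 3), Rps13 (2 and 3), Rpl17 (4 and 2) and Rpl7a (4 and 2), with Rps3a1 and Rps29 (2 and 4 each) tied with these last. Footprint number did not follow value: over the 82 genes, r was -0.154 and rho -0.124, and the points share the libraries.

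Among promoters whose peak covers the start in both libraries, footprints lay over different positions at the 69 members and the 9388 other genes. From 10 to 19 bp downstream of the start, 45.1% of member bases in replicate 1 and 42.2% in replicate 2 lay in a footprint, against 28.1% and 25.9%. From 90 to 81 bp upstream the shares were 43.8% and 43.6%, against 30.1% and 28.0%. From 30 to 11 bp upstream they were close to those of other genes, 34.2% and 34.5% against 35.7% in the first 10 bp, and 37.7% and 38.8% against 37.5% in the next. With 69 genes, a change of 1 gene moves such a share by over 1 percentage point. From 40 to 49 bp downstream members were lower, at 18.4% and 18.6% against 24.1% and 21.3%. This comparison was added after the values were seen, and the first 2 steps given are those of largest gap.

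**Figure D4:**
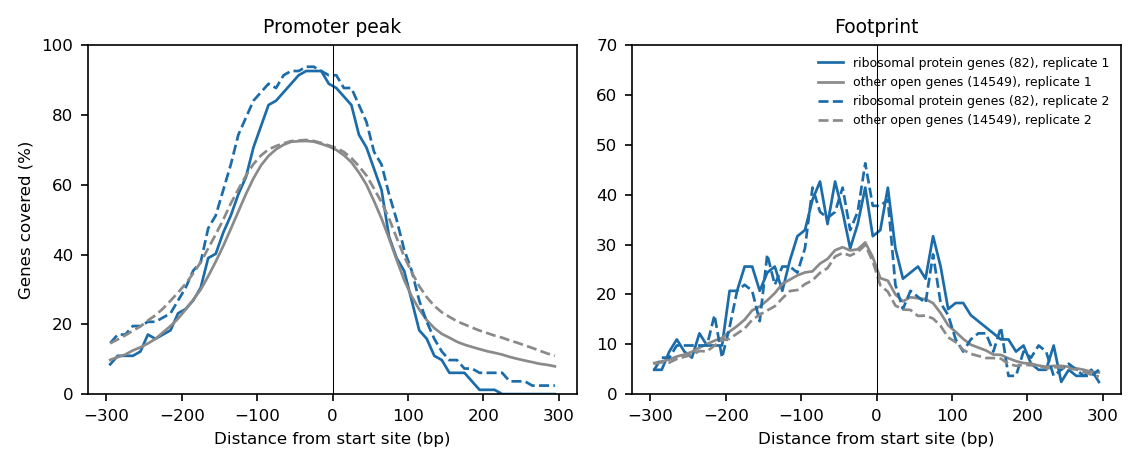
Share of genes whose promoter peak (left) or footprints (right) cover each 10 bp step around the start site, in the direction of transcription, for 82 ribosomal protein genes (blue) and 14549 other open genes (grey). Solid lines are replicate 1 and dashed lines replicate 2. Peaks cover the start at more members than other genes, and footprints cover up to 46.3% of members in a step in replicate 2, against up to 29.9% of other genes. Both maxima are from 20 to 11 bp upstream, where peaks also cover more members (92.7% against 72.0% in replicate 2). Among promoters whose peak covers the start in both libraries, 38.8% of member bases and 37.5% of other bases in that step lay in a footprint in replicate 2. Those shares are means over bases, unlike the shares of genes drawn here, so the fall from 46.3% is not read as an effect of that restriction.

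Promoter sequences, from 250 bases before to 50 after the start, were taken from RefSeq (GRCm38.p6, the mm10 build) for the 66 of 86 members in its promoter table. Among those with no entry were Rps20, Rpl3, Rps29, Rpl36, Rpl29, Rps27a, Rpl21, Rplp1, Rpl17, Rpl7, Rps14, Rpl8, Rpl30, Rpl32 and Rpl23a. Positions count from the table's start base as 0, negative upstream. Shares are compared with all 16488 protein-coding promoters of the table, and motifs were searched on both strands.

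A pyrimidine run near the start, as in the TOP element, was frequent. A C stood at the start base of 21 members (31.8%), against 14.0% of all promoters. A run of 5 or more pyrimidines lay over the start in 19 (28.8%), against 8.66%. Since annotated starts are not exact, the longest run of C or T between 20 bases before and 50 after was also taken, a measure added after the files were seen. It was 8 or longer in 48 members (72.7%), against 24.3% of all promoters and 22.2% of other open ones. Its median length was 10 bases in members and 5 in other open promoters. The longest, of 21 bases, was at Rpl7a, the promoter of highest value:
Rpl7a run: ttccctcttctttctttctcc
Of the closed paralogs, Rpl3l alone had a run of 8 or longer, of 9 bases. The longest run was 7 bases at Rpl39l and Rps27rt and 5 at Rpl10l.

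These 6 promoters show the run and its place, which shifts by a few bases between genes. Each is printed from 30 bases before to 24 after the start base, and capitals mark the pyrimidine run that lies over it.
Rpl27a (chr7:109519165-109519219, plus): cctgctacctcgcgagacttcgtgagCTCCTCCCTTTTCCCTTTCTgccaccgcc
Rpl31 (chr1:39367821-39367875, plus): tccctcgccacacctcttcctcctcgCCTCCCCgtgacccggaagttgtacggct
Rpl15 (chr14:18270962-18271016, minus): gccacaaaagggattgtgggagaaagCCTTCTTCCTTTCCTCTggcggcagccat
Rpl14 (chr9:120571487-120571541, plus): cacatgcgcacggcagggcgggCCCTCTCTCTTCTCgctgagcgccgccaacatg
Rps21 (chr2:180257349-180257403, plus): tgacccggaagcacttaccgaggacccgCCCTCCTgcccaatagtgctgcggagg
Rps24 (chr14:24490648-24490702, plus): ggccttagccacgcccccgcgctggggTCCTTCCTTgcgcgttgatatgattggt
The runs are 20, 7, 17, 14, 7 and 9 bases long. Among open members counted above as having a pyrimidine run over the start, these 6 had the highest mean values after Rpl7a. Their values, from 12.6 (Rps24) to 18.4 (Rpl27a) in replicate 1, therefore do not stand for promoters with the run in general. Genes with long runs were also found below the members' median, such as Rpl35 (18 bases, 8.24), Rps10 (13 bases, 8.06) and Rpl38 (10 bases, 5.76).

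The second feature was the CG-rich motif TCTCGCGA, a sequence type bound by ZBTB33 (Kaiso). It occurred in 11 members (16.7%), against 1.59% of all promoters and 2.11% of other open ones. The same letters reversed, not complemented, occurred in 2. The genes were Rpl10a, Rpl12, Rpl26, Rpl27a, Rpl35, Rpl7a, Rps15a, Rps19, Rps28, Rps3a1 and Rps6. In these 11 there were 18 matches, since the extended form TCTCGCGAGA reads the same on both strands and counts as 2. Of the 18, 17 were upstream of the start and 16 within 100 bases of it. In both libraries 15 of 18 lay under a footprint, as did 76.3% of matches in other open promoters, against 27.7% of the reversed letters there. Here and for the motifs below, a match counts as under a footprint also where only part of it is covered, and both readings of a palindrome are counted. These 5 promoters show the motif, in capitals, from 80 bases before to 9 after the start base.
Rps28 (chr17:33824553-33824642, minus): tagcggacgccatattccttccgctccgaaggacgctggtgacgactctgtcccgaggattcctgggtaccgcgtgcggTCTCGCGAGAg
Rpl10a (chr17:28328485-28328574, plus): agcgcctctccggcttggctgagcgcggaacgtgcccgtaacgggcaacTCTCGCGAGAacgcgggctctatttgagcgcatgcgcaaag
Rpl12 (chr2:32961632-32961721, plus): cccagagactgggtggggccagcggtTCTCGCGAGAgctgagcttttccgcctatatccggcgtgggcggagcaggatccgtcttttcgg
Rps6 (chr4:86857358-86857447, minus): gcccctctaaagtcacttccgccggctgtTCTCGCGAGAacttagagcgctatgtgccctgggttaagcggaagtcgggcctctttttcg
Rps15a (chr7:118116138-118116227, minus): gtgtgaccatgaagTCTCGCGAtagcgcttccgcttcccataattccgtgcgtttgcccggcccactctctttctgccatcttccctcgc
All 4 genes with the 10-base palindrome in this set had it at a different distance from the start, from 54 bases upstream at Rpl12 to 1 base upstream at Rps28. The 11 genes had a median mean value of 10.9, against 7.398 for the 51 open members without the motif, and the values of the 2 sets overlapped, with Rpl35 at 5.94 and Rps15a at 6.46 among those with it.

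An ETS-type motif, CCGGAAG, was found in 25 members (37.9%), against 12.6% of all promoters and 17.0% of other open ones, and its reversed letters in 4. In the 24 open genes that had it there were 28 matches, 19 on the gene's own strand and 21 upstream of the start. In both libraries 11 of 28 (39.3%) were under a footprint, close to the 40.7% in other open promoters. The median mean value was 7.42 with the motif and 8.46 without it. Its place varied, as these 3 promoters show, from 100 bases before to 24 after the start base with the motif in capitals.
Rps3a1 (chr3:86142644-86142768, minus): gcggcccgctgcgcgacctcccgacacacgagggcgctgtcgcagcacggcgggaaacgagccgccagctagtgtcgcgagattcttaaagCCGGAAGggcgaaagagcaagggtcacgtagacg
Rpl31 (chr1:39367751-39367875, plus): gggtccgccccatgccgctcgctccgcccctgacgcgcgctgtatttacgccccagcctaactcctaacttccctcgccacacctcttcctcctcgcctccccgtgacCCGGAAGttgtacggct
Rpl15 (chr14:18270962-18271086, minus): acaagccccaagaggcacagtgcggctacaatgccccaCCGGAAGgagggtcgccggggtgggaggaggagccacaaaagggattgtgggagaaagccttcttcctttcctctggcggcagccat
The motif begins 9 bases upstream of the start in Rps3a1, 8 downstream in Rpl31 and 62 upstream in Rpl15. At Rpl31 and Rpl15 it was under a footprint in both libraries, and at Rps3a1 it was not.

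Of the other motifs, SP1, CCAAT and the E-box were no more common than in other open promoters, and the rest were in 6 members or fewer. The SP1 box GGGCGG was in 39 members (59.1%), between the 49.4% of all promoters and the 66.3% of other open ones, and 41 of its 58 matches were under a footprint in both libraries (70.7%, against 50.2% in other open promoters). Its reversed letters were in 41 members (62.1%), with 55.9% of matches under a footprint in both libraries against 48.1% elsewhere. CCAAT was in 20 (30.3%, against 38.6% of all), the E-box CACGTG, bound by MYC and MAX, in 5 (7.58%, against 8.13%), and TATAAA in 6 (9.09%, against 12.6% of all and 6.59% of other open promoters). Of 8 TATAAA matches, 6 were under a footprint in both libraries, against 16.1% in other open promoters. These 6 lay in Rpl22l1, Rps2, Rplp0 and Rps28 alone, and the 2 at Rpl22l1 overlap. Covered matches began 17 bases downstream of the start at Rplp0 and Rps2 and 37 downstream at Rps28. They are too few to be read as particular to the members. YY1's AAGATGGC was in 5 (7.58%, against 3.3%), the CREB site TGACGTCA in 5 (7.58%, against 2.49%), the ZNF143 letters ACTACAA in 4 (6.06%, against 3.9%) and the NRF1 palindrome in 2 (3.03%, against 1.44%), Rpl10a and Rpl37a. In the same order, the shares over other open promoters were 4.27%, 3.23%, 4.06% and 2.01%, so each stood above both sets, but in few members. The CREB sites were at Rpl13, Rpl18, Rpl26, Rpl27a and Rps9, and 4 of the 5 (80%) were under a footprint in both libraries, as were 83.8% of matches in other open promoters. Median GC content of the members' promoters was 57.5%, below the 61.7% of other open promoters, and the ratio of observed to expected CpG was 0.865 against 0.759.

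**Figure D5:**
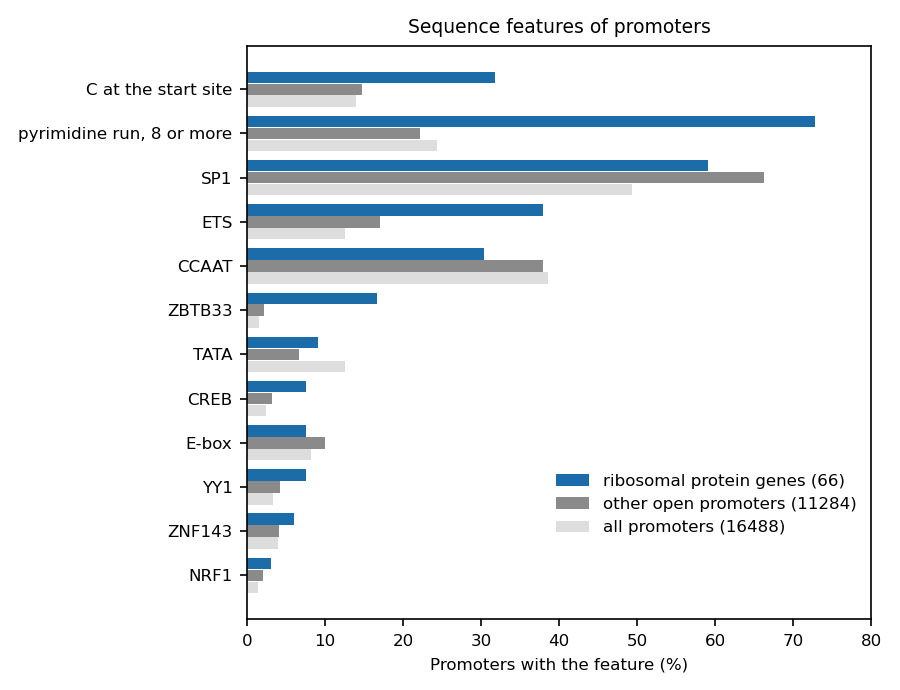
Share of promoters with each sequence feature among 66 ribosomal protein genes (blue), 11284 other open promoters (grey) and all 16488 promoters of the table (light grey). The pyrimidine run (72.7% of members), the C at the start (31.8%), the ETS-type motif (37.9%) and the ZBTB33-type motif (16.7%) stand above both comparison sets, while SP1, CCAAT and the E-box do not. YY1, CREB, ZNF143 and NRF1 also stand above both, each in 5 members or fewer.

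The protected bases differ between promoters. In these 4 promoters, chosen after the values were seen, capitals mark every base that lay under a footprint in both libraries, from 120 bases before to 29 after the start base.
Rplp0 (chr5:115559347-115559496, plus): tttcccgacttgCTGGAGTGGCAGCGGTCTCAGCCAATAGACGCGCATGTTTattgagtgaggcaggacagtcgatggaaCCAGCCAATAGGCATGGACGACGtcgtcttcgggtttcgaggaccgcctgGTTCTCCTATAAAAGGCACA
Rpl23 (chr11:97782410-97782559, minus): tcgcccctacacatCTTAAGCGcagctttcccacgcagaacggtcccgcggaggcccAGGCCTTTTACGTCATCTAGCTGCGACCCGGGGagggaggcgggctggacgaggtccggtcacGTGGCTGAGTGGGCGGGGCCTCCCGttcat
Rpl10a (chr17:28328445-28328594, plus): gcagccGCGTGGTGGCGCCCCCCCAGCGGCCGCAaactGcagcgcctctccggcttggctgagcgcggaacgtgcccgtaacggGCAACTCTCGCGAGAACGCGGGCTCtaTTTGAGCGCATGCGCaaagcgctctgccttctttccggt
Rps6 (chr4:86857338-86857487, minus): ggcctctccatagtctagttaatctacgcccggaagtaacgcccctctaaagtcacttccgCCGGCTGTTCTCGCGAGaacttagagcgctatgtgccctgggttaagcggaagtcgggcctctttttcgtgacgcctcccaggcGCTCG
In Rplp0 83 of the 150 bases were protected in both libraries, including both CCAAT matches and a TATAAA that lies 17 bases downstream of the table's start. In Rpl23 66 bases were, including GGGCGG. In Rpl10a 69 were, over TCTCGCGA and the NRF1 palindrome. In Rps6 22 were, over TCTCGCGA, while its CCGGAAG was not covered in both.

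Members lay on 19 chromosomes, with 14 on chromosome 7, and few were neighbours. Rps29 and Rpl36al, 23.5 kb apart on chromosome 12, had mean values of 9.56 and 12.5, and Rps2 (10.6) lies 5.89 kb from the closed Rpl3l. A start of another coding gene lay within 1000 bp of 19 members, and these had medians of 11.3 and 6.17, against 10.4 and 5.54 for the 63 open members without one. One of the 19, at Rps10, is the annotated readthrough transcript with Nudt3. A snoRNA gene lay inside 30 members, 58 snoRNA genes in all, with 5 in Rpl4 and 4 in Rpl13a. Neighbouring starts and snoRNA genes were counted at members alone, so neither count is read as higher or lower than at other genes. The hosts had medians of 11.8 and 6.26 and the 52 other open members 10.3 and 5.48, a gap small beside the range within each set, which holds both Rpl7a and Rpl23a among hosts.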

How the data were processed

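DNase-seq libraries of 2 ovaries were analysed, each value being 1 library. Per the labels, coordinates are on mm10. The authors deposited peaks with a signal value per peak, called separately in each library. Aligner, caller, threshold and scaling: not given in the sources used here. The values rise in fixed steps of 0.00651 in replicate 1 and 0.00654 in replicate 2 (100% of peaks, tolerance 0.05 step), and the members' median was 1605 and 866 steps. Whether a step is a read is unknown, so no counting interval is given. The deposited footprint score is constant, so positions alone were used. The q-value per base was deposited where below 0.05.

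Peaks were joined to GENCODE M21 start sites in Python 3.11.15 (numpy 2.4.6, pandas 2.3.3, pysam 0.24.0), with an overlap of 1 bp or more counted. On simulated peaks, 200 of 200 planted at promoters were recovered with 0 false. Members, lists and motifs were chosen with earlier results of these data known. Genes named are the 10 highest and 5 lowest in value, 5 at each end of ratio, width and footprints, all X-linked, unopened and paralogous members, and others where stated. Some items are not reported here. Gene lists and the motif shares are described with no test, since 1 group of 2 animals allows none. Alternatives were peak lists, windows, start sites, peak choice, footprint rules, motif windows and single libraries.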

Additional observations from a re-analysis of the deposited data

How the results depend on the processing

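The counts of open genes and the median value, width and footprints stayed close under the shorter peak list (82 open genes), windows of 250 and 1000 bp, other start-site choices and the peak nearest to the start. Without either replicate, open members numbered 82 to 83, the median value ran from 5.66 to 10.4, the median width from 220 to 260 bp and footprints stayed at 5. Summed over all peaks in the window, the median width was 305 bp rather than 240. Without centring, the median log2 ratio was -0.85 rather than 0.03. The median number of footprints was 4.5 counting those wholly inside the peak, 4 within 100 bp of the start and 4 counting those seen in both libraries, rather than 5. The ETS-type motif fell from 25 members to 4 with its letters reversed. YY1's motif rose from 5 to 9 with a window of 500 bp to either side, and fell to 0 reversed. The median peak centre, -36 bp, was 9.5 bp from the most upstream start, -5.5 bp from the start of most transcripts, and -40.25 bp for the base of lowest q-value, an alternative added after seeing the data. Of the values of single named genes, 371 stayed within their spread and 14 moved, and of their ratios 126 stayed and 13 moved. Part of these counts was fixed in advance. A single library always lies within the SD of the 2, so leaving out a replicate could not move a value. Footprint rules could not change a ratio. The counts that stayed are therefore no measure of stability. Summed over peaks, which may overlap, Rps14 had 13.49 rather than 6.09, Rpl10 7.55 rather than 4.07, Rps26 5.86 rather than 3.46, Rpl4 4.82 rather than 2.96 and Rpl38 8.67 rather than 5.46, and the median ratio was -0.03. No paired analysis was possible because there is 1 group. Annotated starts limit every distance, and 2 libraries limit every spread.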
